A study of Mus musculus with 4 samples.

Results

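The nuclear-encoded subunits of the mitochondrial respiratory chain were examined in mouse liver RNA-seq. Members were the protein-coding genes whose symbols name a subunit of complex I (Ndufa, Ndufb, Ndufc, Ndufs and Ndufv genes), complex II (Sdha to Sdhd), complex III (Uqcr genes and Cyc1), complex IV (Cox4 to Cox8 genes) or ATP synthase (Atp5 genes), 85 of the 35275 genes listed. Complex I had 37 members, complex II had 4, complex III had 9, complex IV had 18 and ATP synthase had 17. A total of 81 members, against 12180 of all genes, reached 1 CPM or more (read counts brought to a common library size, scaled by TMM) in at least 1 library. Of these 81, Cox6a2 and Cox8b reached it in VS alone, Cox7a1 in VS and VI alone and Ndufa4l2 in FS alone, so the filter in part fixed the direction of these 4. The 4 that did not were Cox4i2, Cox6b2, Cox7b2 and Cox8c, the latter pair with no read in any library.

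The libraries came from 4 groups of female mice, VS (vehicle, sedentary), VI (vehicle, interval training), FS (fibril, sedentary) and FI (fibril, interval training). Interval training (IT) was treadmill running over 16 weeks, and fibril mice had received an intravenous injection of AApoAII amyloid fibrils, which seed deposition of apolipoprotein A-II, whereas vehicle mice had not. Every group, controls included, was 26 weeks old and carried Apoa2c, an amyloidogenic allele. The methods name R1.P1-Apoa2c mice with a SAMR1 background as the strain, and the sample labels name AKR/J. Liver pieces of 4 mice were combined into 1 library per group, 16 mice in all, so no value has a replicate error and no contrast between groups has a replicate test.

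Complexes I to IV pass electrons from NADH and succinate to oxygen and, except for complex II, pump protons across the inner mitochondrial membrane, and ATP synthase uses the resulting gradient to make ATP. All complexes but complex II combine nuclear-encoded subunits with subunits encoded by mitochondrial DNA, so both genomes have to supply them. Hepatocytes are rich in mitochondria and use this ATP for urea synthesis, gluconeogenesis and protein secretion, and several complex IV subunits have separate liver and muscle forms.

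Total counts were between 23442935 and 28814802 per library, and the members took between 1.24% and 1.51% of them. The 8 hepatocyte markers summed to between 158519 and 174044 CPM. Single markers differed in direction: in FS versus VS, 5 were higher and 3 lower, with log2 ratios from −0.90 (Cyp2e1) to 0.57 (Cps1). A set of 13 skeletal muscle markers differed between the libraries, with a summed level of 78.5 CPM in VS and 10.2 in VI, against 1.12 in FS and 1.07 in FI. The 6 Kupffer cell markers found summed to 204 CPM in VS and 255 in VI, against 318 in FS and 300 in FI. In bulk tissue, fewer cells of a type and less RNA per cell cannot be told apart.

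Promoter sequences were read from RefSeq (GRCm38.p6), which gave an entry for 69 of the 85 members. The letters CGCATGCG, the same on both strands and the core bound by NRF1, a transcription factor known for respiratory chain genes, stood in the 250 bases before the start of 7 of 65 members other than tissue isoforms (10.8%), against 2.32% of 17492 protein-coding genes. The windows of these genes, 30 bases each, are shown because no other searched motif stood in more of the members other than isoforms, with CGCATGCG in capitals.
Atp5g2, chr15:102671070-102671099, minus strand: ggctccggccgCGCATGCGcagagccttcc
Atp5j, chr16:84835105-84835134, minus strand: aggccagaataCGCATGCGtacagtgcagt
Atp5k, chr5:108434430-108434459, minus strand: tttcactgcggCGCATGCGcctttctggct
Atp5l, chr9:44920963-44920992, minus strand: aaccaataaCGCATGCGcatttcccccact
Cox6a1, chr5:115349101-115349130, minus strand: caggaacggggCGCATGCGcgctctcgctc
Ndufa11, chr17:56717692-56717721, plus strand: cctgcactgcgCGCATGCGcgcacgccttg
Ndufa8, chr2:36049339-36049368, minus strand: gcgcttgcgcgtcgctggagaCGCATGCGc

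The capitals began between 9 bases before the start, in Ndufa8, and 241 bases before it, in Atp5l. Searched on both strands, the ETS core CCGGAAGT stood in 3 of the 65 (4.62%, against 4.26% of all promoters), the ERR site TCAAGGTCA in Atp5g3 alone (all promoters, 0.360%), the YY1 site AAGATGGCG in Atp5j and Atp5sl (all promoters, 0.840%), the myogenic E-box CAGCTG in 5 (7.69%, against 13.8%) and the MEF2 site in 0 (all promoters, 3.12%). None of these motifs overlaps another. A match describes letters in a window and not binding. The ratios of these 7 genes spread widely. Among members that passed the filter, muscle isoforms aside, Atp5k had the lowest log2 ratio between FS and VS (−0.57), and Ndufa8 one of the highest (0.03).

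Levels per length were compared within each complex by the FPKM the authors deposited (counts scaled by gene length and library total). In ATP synthase, Atp5b, the catalytic beta subunit, led with 704 FPKM in VS and 759 in VI, against 602 in FS and 692 in FI. Atp5g3 had the highest level of the 3 genes for the c subunit, which forms the rotating ring, between 378 and 515 FPKM, whereas Atp5g2 lay between 111 and 154 and Atp5g1 between 24.6 and 31.1. These 3 ranges did not overlap. Atp5s and Atp5sl, named after ATP synthase although they are not among its core subunits, were lowest in that group, at between 2.96 and 4.04 FPKM and between 17.1 and 21.6 FPKM.

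In complex IV, Cox6a1 and Cox8a, the forms used in liver, had the highest levels, between 527 and 621 FPKM and between 465 and 601 FPKM, and these ranges overlapped. In complex I, Ndufa4, which is now counted as a complex IV subunit, had between 501 and 575 FPKM, and Ndufb9, an accessory subunit, between 290 and 384. Ndufb2, another accessory subunit, had only 61, 72, 69 and 76 reads in VS, VI, FS and FI over a listed length of 4371 bases, which gave the lowest level of complex I, between 0.548 and 0.701 FPKM. Ndufb2 overlaps 3 other genes, 1 of them on the same strand, and whether the overlap lowered its count was not tested. In complex III, Uqcr10 was highest (296 to 403 FPKM) and the core protein Uqcrc2 lowest (122 to 144 FPKM). In complex II, the iron-sulphur subunit Sdhb was highest (157 to 202 FPKM) and the membrane anchor Sdhc lowest (44.9 to 54.4 FPKM).

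Nearly all members were lower in livers of fibril-injected mice than in vehicle livers, and this held in each of the 5 complexes. This comparison is between fibril-injected and vehicle mice, and the amount of amyloid was not the same in both fibril groups. The paper reported less amyloid in the liver of trained than of sedentary fibril mice. In sedentary mice, the summed level of the members was 14953.2 CPM in VS and 12095.0 CPM in FS, 19.1% lower, and in trained mice 14897.8 CPM in VI and 12878.5 CPM in FI, 13.6% lower. Of 81 members, 78 (96.3%) had a lower level with fibrils in sedentary mice, where 48.0% of all genes tested did, and 80 (98.8%) had one in trained mice, where 48.7% did. The median log2 ratio of the members was −0.30 for FS versus VS and −0.23 for FI versus VI, beside 0.02 and 0.01 over all genes.

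The 95% interval of the ratio, an exact conditional binomial one that covers counting error only, lay below 0 for 76 members in FS versus VS (all genes, 25.7%) and for 70 in FI versus VI (all genes, 23.8%). It lay above 0 for 1 member in the first contrast, Ndufa4l2 (all genes, 27.2%), and for 0 in the second (all genes, 23.1%). Ndufa4l2 had passed the filter only through FS. Without the tissue isoforms, the interval lay below 0 for 73 and 68 of 78 members. It narrows as reads increase, and most members are abundant. Among 760 genes with a mean of at least 20 CPM and up to 1500 bases, it lay below 0 for 455 and 432. Of the 51 members within these limits, it did so for 49 and 47.

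By complex, the summed level was 19.4% lower in FS than in VS for complex I, 16.4% for complex II, 21.2% for complex III, 19.2% for complex IV and 18.5% for ATP synthase. In trained mice, FI was lower than VI by 13.9% for complex I, 11.8% for complex II, 14.5% for complex III, 15.6% for complex IV and 12.3% for ATP synthase. The summed difference was smaller in trained mice for each of the 5, and differences between the complexes were not tested. Complexes II, III and IV had all their tested members (4, 9 and 14) below 0 in both contrasts (all genes, 48.0% and 48.7%). The 14 of complex IV include Cox6a2, Cox8b and Cox7a1, whose direction was in part fixed because they passed the filter only through vehicle libraries.

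**Figure D1:**
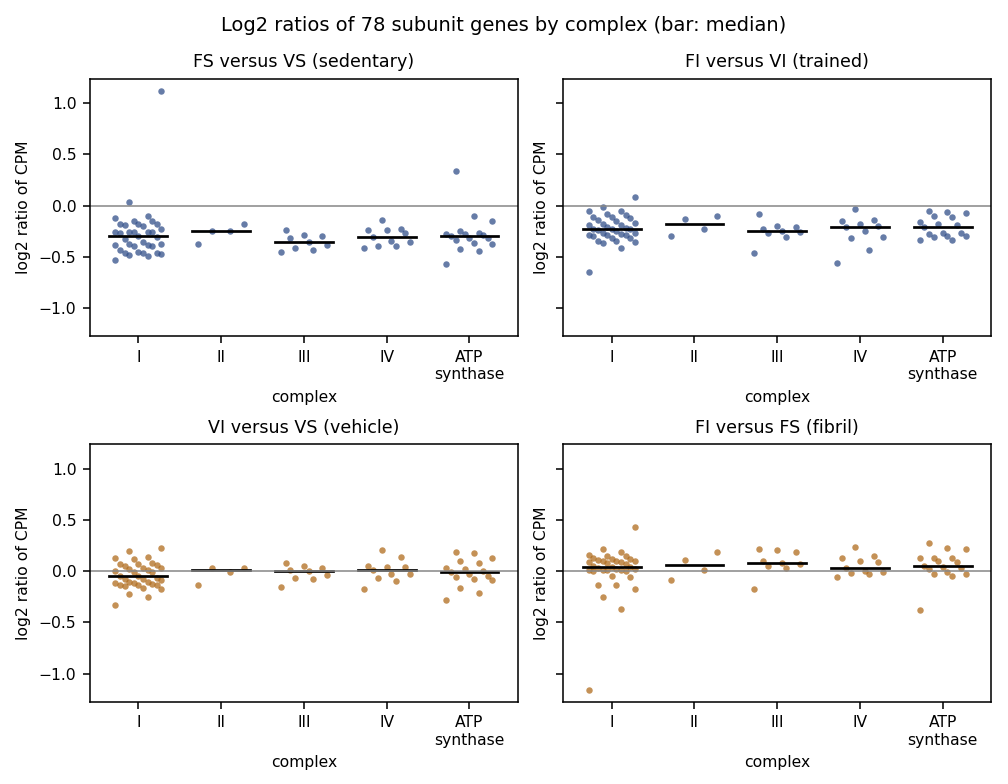
Log2 ratios of CPM (vertical axis) of the 78 tested members other than muscle isoforms, by complex (horizontal axis), 1 point per gene, with a bar at the median, in 4 contrasts of single libraries. In FS versus VS and FI versus VI, 75 and 77 of the 78 points lie below 0, while points of VI versus VS and FI versus FS lie on both sides of it.

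Among the core subunits of complex I, which carry the flavin and iron-sulphur clusters, all 7 were lower in both contrasts. Ndufv1, which binds NADH, had 183 CPM in VS and 178 in VI, against 139 in FS and 154 in FI. Both fibril libraries thus lay below both vehicle libraries. Ndufs7, which lies near the quinone site, had 130 CPM in VS and 120 in VI, against 93.1 in FS and 101 in FI, a log2 ratio of −0.48 (95% interval −0.56 to −0.41) in sedentary and of −0.25 (−0.33 to −0.17) in trained mice. Ndufs1, the largest core subunit, had the ratios closest to 0 among them, with 87.4 CPM in VS and 92.4 in VI, against 81.8 in FS and 86.8 in FI, and its vehicle and fibril libraries lay close together (log2 ratios of −0.10 and −0.09).

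Of the 30 accessory subunits of complex I, 28 were lower with fibrils in sedentary mice and 29 in trained mice. The lowest ratio between FI and VI belonged to Ndufb8, an accessory subunit of the membrane arm (chromosome 19, 44548572 to 44555440, mm10), which had 47.5 CPM in VS and 55.5 in VI, against 35.1 in FS and 35.5 in FI. FI was 36.0% lower than VI (log2 ratio −0.64, interval −0.77 to −0.52) and FS was 26.0% lower than VS (−0.43, −0.56 to −0.31). Ndufa13, also known as a cell death regulator, had 106 CPM in VS and 96.5 in VI, against 73.5 in FS and 80.2 in FI, with a log2 ratio of −0.53 between FS and VS. Ndufa5, an accessory subunit of the peripheral arm, had 88.3, 90.5, 62.8 and 72.8 CPM in the same order, and its fibril libraries were again the lower pair. Ndufa8 went against the rest with 77.6 CPM in VS and 70.4 in VI, against 79.4 in FS and 66.5 in FI, and its intervals included 0 in both contrasts (−0.06 to 0.12 and −0.18 to 0.02). Ndufc1 likewise had 42.9 CPM in VS and between 39.4 and 39.7 in the other 3 libraries.

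The promoter of Ndufb8 is shown because this gene had the lowest ratio of the liver subunits in trained mice. The 120 bases end before the start of the gene (GRCm38.p6, chr19:44555443-44555562, minus strand) and held none of the 6 motifs searched.
Ndufb8: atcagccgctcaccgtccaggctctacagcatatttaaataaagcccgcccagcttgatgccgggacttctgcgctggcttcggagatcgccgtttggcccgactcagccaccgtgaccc

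In complex II, which is also an enzyme of the TCA cycle, Sdha, the flavoprotein that oxidises succinate, had 452 CPM in VS and 451 in VI, against 381 in FS and 411 in FI. Sdhb had 244, 250, 189 and 214 CPM in the same order, 22.8% lower with fibrils in sedentary and 14.5% lower in trained mice. For both genes the fibril libraries were the lower pair. In complex III, the Rieske iron-sulphur protein Uqcrfs1 had 273 CPM in VS and 279 in VI, against 224 in FS and 232 in FI, and cytochrome c1 (Cyc1) had 269, 270, 217 and 233. The lowest member of this complex in trained mice was Uqcrb, which takes part in quinone binding, with 106 CPM in VS and 95.3 in VI, against 78.3 in FS and 69.2 in FI, 26.0% and 27.3% lower with fibrils.

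In complex IV, Cox4i1, the main form of subunit 4, had 380 CPM in VS and 392 in VI, against 286 in FS and 317 in FI. Cox5a, which binds the matrix side of the enzyme, had 62.8 CPM in VS and 72.7 in VI, against 49.3 in FS and 49.4 in FI. Its ratio was −0.35 (interval −0.46 to −0.24) in sedentary and −0.56 (−0.67 to −0.45) in trained mice, so that, as for Ndufb8, the trained vehicle library was the highest. Cox7a2, the liver form of subunit 7a, had 132, 129, 107 and 126 CPM in the same order, and FI and VI differed by less than the counting interval (−0.11 to 0.04). Cox7a2l, a factor of supercomplex assembly, had the ratio nearest to 0 of complex IV in sedentary mice, −0.14.

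In ATP synthase, Atp5a1, the alpha subunit, had 1078 CPM in VS and 1098 in VI, against 884 in FS and 965 in FI, and Atp5b had 1338, 1465, 1125 and 1359. Atp5b in FI thus exceeded VS but not VI. Atp5k, subunit e, which takes part in dimer formation, had 109 CPM in VS and 89.4 in VI, against 73.4 in FS and 70.8 in FI, 32.7% lower in FS than in VS. Atp5s was the exception with 4.62, 4.68, 5.86 and 4.51 CPM, and its intervals included 0 in both contrasts.

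**Figure D2:**
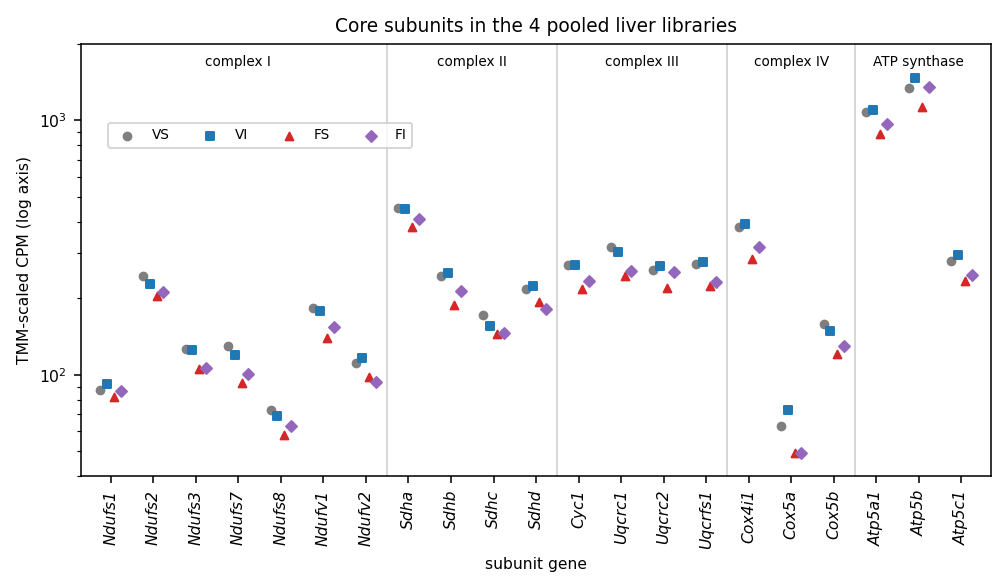
TMM-scaled CPM on a log axis (vertical) of 21 core subunit genes (horizontal), grouped by complex, in the libraries VS (circles), VI (squares), FS (triangles) and FI (diamonds), 1 pool of 4 mice each. FS was lower than VS, and FI lower than VI, for each of these genes.

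Few differences were large. Beyond 1.5-fold, 3 of 81 members were lower in FS than in VS (7.47% of all genes tested were) and 1 was higher (10.1% of all genes). In FI versus VI, 4 members were lower beyond 1.5-fold (all genes, 6.08%) and 0 higher (all genes, 7.90%). The shift was seen in the direction and median of the members and not in their number beyond 1.5-fold. The lower ones were the muscle isoforms Cox8b, Cox6a2 and Cox7a1 in both contrasts and Ndufb8 in the second. Cox8b, Cox6a2 and Cox7a1 had passed the filter only through vehicle libraries. The higher one was Ndufa4l2, a low-oxygen-induced relative of Ndufa4, with 14, 16, 39 and 14 reads in VS, VI, FS and FI, so that only FS stood above the others, and it had passed the filter only through FS.

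An additive model of amyloidosis and IT was fitted with edgeR's quasi-likelihood test to 11760 genes, of which 78 were members. It gives FS and FI the same level of amyloidosis and rests on 1 residual degree of freedom. After Benjamini-Hochberg adjustment over all genes, 1 member was lower with amyloidosis (all genes, 2.17%) and 0 were higher (all genes, 2.81%). The one that passed was Ndufb8, with a log2 change of −0.55 ± 0.12 (SE) and an adjusted p of 0.0372 in edgeR, with a range from 0.000697 to 0.168 over the alternative fits. Uqcrb (adjusted p = 0.0546 in edgeR) and Cox5a (0.0597) did not pass. At an unadjusted p below 0.05, 36 members were lower and 0 higher (all genes, 10.5% and 10.8%). At the same p, 206 of 760 genes with a mean of at least 20 CPM and up to 1500 bases were lower and 57 higher. Of the 51 members within these limits, 28 were lower and 0 higher. Of the 78 fitted, 77 had a change below 0, with a median of −0.27. Cox7a1, which reached 1 CPM only in vehicle libraries, was among the 36 and among the 77. Without the tissue isoforms, 35 of 77 fitted members were lower at an unadjusted p below 0.05, and 76 had a change below 0. The adjusted call for Ndufb8 was lost in DESeq2 (adjusted p = 0.0927) and without the IT term (0.168).

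The members were compared with all genes under shared limits of length and abundance, without matching within these limits. The listed lengths of the members (median 955 bases) were shorter than those of the genes tested (median 3070 bases). Short genes were lower in the fibril libraries as a whole. Across 5058 genes with a mean of at least 20 CPM, Spearman's rho between length and log2 ratio was 0.23 for FS versus VS and 0.22 for FI versus VI (genes share libraries and are not independent). Over the 81 members, muscle isoforms included, rho was 0.36 and 0.35. Among the 760 of the 5058 genes with up to 1500 bases, 73.9% were lower in FS than in VS, with a median of −0.17. In FI versus VI, 73.6% of them were lower, with a median of −0.13. The 51 members within the same limits had medians of −0.32 and −0.23, with 50 and 51 of them lower. Without a limit on length, 54.1% of the 5058 genes were lower in sedentary and 56.5% in trained mice, and 73 and 74 of 74 members. For IT in vehicle mice, 56.6% of the short genes and 46.8% of the 5058 were lower, against 28 of 51 and 42 of 74 members, and in fibril mice 50.7% and 46.4%, against 13 of 51 and 18 of 74. The part of transcript length in the members' result was not tested.

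Other mitochondrial and translational genes were measured beside the members. The subunits encoded by mitochondrial DNA, 12 of 13 tested, were lower in 9 (FS versus VS, median −0.08) and in 11 (FI versus VI, median −0.19), and their summed level was 5.26% and 8.33% lower. Of all genes, 48.0% and 48.7% were lower. In VS, mt-Co2, mt-Atp6, mt-Co3, mt-Nd3 and mt-Nd4l had between 31 and 1092 reads, and the others tested between 11842 and 325166. The genes with few reads lay between −0.23 and 0.004 in FS versus VS and between −0.59 and −0.23 in FI versus VI. The others lay between −0.17 and 0.13 and between −0.22 and 0.07. In edgeR's additive model, 0 of the 12 tested passed after adjustment for amyloidosis, with 1 lower at an unadjusted p below 0.05 (all genes, 10.5%). Assembly factors of the complexes, 37 tested, were lower in 29 and 27, with medians of −0.07 and −0.12, and TCA cycle enzymes, 16 tested, in 13 and 11, with medians of −0.08 and −0.12. The mitochondrial ribosome, 76 tested, had medians of −0.13 and −0.12. Proteins of the cytosolic ribosome, which also have short and abundant transcripts, were lower in 75 of 76 in FS versus VS (median −0.20) and in 59 of 76 in FI versus VI (median −0.07). In FS versus VS, all of these lists had medians closer to 0 than the −0.30 of the members.

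**Figure D3:**
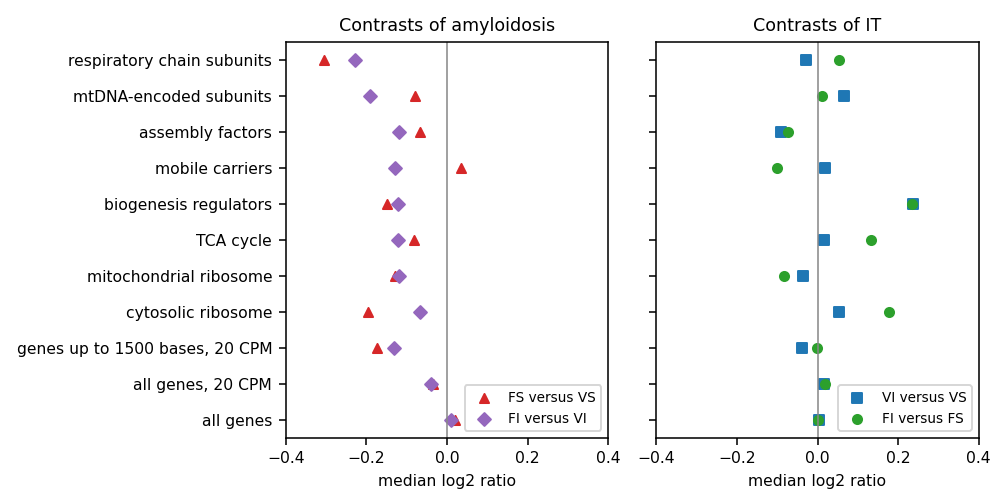
Median log2 ratio of CPM (horizontal axis) of the respiratory chain subunits, 7 related gene lists and 3 backgrounds (vertical axis), on the left for FS versus VS and FI versus VI and on the right for VI versus VS and FI versus FS. On the left the respiratory chain subunits have the lowest median in both contrasts (−0.30 and −0.23).

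IT went with no common direction of the members in vehicle mice and with slightly higher levels in fibril mice. This comparison sets trained beside sedentary livers in vehicle and in fibril mice. In FI versus FS, training and the lower liver amyloid that the paper reported for trained mice cannot be told apart. Of the 81 members, 45 (55.6%) were lower in VI than in VS (all genes, 49.3%), with a median log2 ratio of −0.03, and their summed level differed by −0.37%. In FI versus FS, 60 were higher (all genes, 50.2%), with a median of 0.05, and their summed level was 6.48% higher, while 21 were lower (all genes, 49.8%). Scaling by total counts lowered this contrast for all genes, to a median of −0.0693 with 59.3% of them lower, and the members then had a median of −0.02 with 43 lower, which was still above that of all genes. Intervals in VI versus VS lay below 0 for 29 members (all genes, 21.7%) and above 0 for 14 (all genes, 22.3%). In FI versus FS they lay below 0 for 10 (all genes, 23.9%) and above 0 for 35 (all genes, 24.3%). Among the 760 genes with a mean of at least 20 CPM and up to 1500 bases, they lay below 0 for 288 and above 0 for 181 in VI versus VS. In FI versus FS these counts were 247 and 245. Of the 51 members within these limits, 18 lay below and 9 above in vehicle mice, and 7 below and 24 above in fibril mice.

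Among the members with at least 5 CPM in either library of a contrast, the highest ratios in vehicle mice were those of Ndufb8 (0.22, interval 0.11 to 0.34), Cox5a (0.21, 0.11 to 0.31) and Atp5g1 (0.19, 0.12 to 0.26). The lowest of these were those of Ndufb3 (−0.33), Atp5k (−0.29) and Ndufb10 (−0.26), accessory subunits of complex I and ATP synthase. Within the same limit, in fibril mice Atp5b (0.27, 0.25 to 0.30), Cox7a2 (0.24) and Atp5h (0.22), the subunit d of the stator stalk, were highest, and Atp5s (−0.38), Ndufb3 (−0.37) and Ndufa8 (−0.26) were lowest. Ndufb3 had 47.9 CPM in VS and 38.2 in VI, against 38.8 in FS and 30.1 in FI, so that it was lower with IT in both backgrounds and lower with fibrils at both activity levels.

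Beyond 1.5-fold, 2 members were lower in VI than in VS, the muscle isoforms Cox6a2 and Cox8b (all genes, 6.30%), and 1 was lower in FI than in FS, Ndufa4l2 (all genes, 7.55%), while 0 were higher in either contrast (all genes, 5.34% and 5.98%). Each of these 3 had passed the filter only through the library in which it was higher. In the additive model, 0 members changed with IT after adjustment in edgeR, DESeq2 or limma-voom (all genes in edgeR, 0.765% higher and 0.714% lower). At an unadjusted p below 0.05, 1 member was lower in edgeR, Ndufb3 (log2 change −0.35, adjusted p = 0.211 in edgeR), with 0 in DESeq2 and 1 in limma-voom (all genes in edgeR, 7.45% lower and 7.23% higher, 14.7% in all).

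The IT ratio was higher in fibril than in vehicle mice for 60 of 81 members (all genes, 48.8%), with a median difference of 0.11 on the log2 scale, beside −0.01 over all genes. For each gene this is also the FI versus VI ratio minus the FS versus VS ratio, so it is not a separate result from the smaller fibril difference in trained mice. The interval of the difference lay above 0 for 40 members (all genes, 19.4%) and below 0 for 7 (all genes, 19.9%). It was 0.32 (interval 0.20 to 0.45) for Ndufa3, 0.27 (0.17 to 0.37) for Cox7a2 and 0.14 (0.11 to 0.17) for Atp5b, and −0.21 for both Ndufb8 (−0.38 to −0.04) and Cox5a (−0.36 to −0.06). With 1 library per group this difference has no replicate test. Its interval narrows as reads increase, and the share over genes as abundant as the members was not taken. This difference also carries the lower liver amyloid of FI than of FS, which cannot be told apart from training in fibril mice. Under total counts it was above 0 for 48 members (all genes, 42.6%), with a median of 0.06, beside −0.0604 over all genes.

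Regulators of mitochondrial biogenesis were measured in the same contrasts, and their difference from the members was not tested. Of 12 found above the filter, 10 had a higher level with IT in vehicle mice (all genes, 50.7%) and 10 in fibril mice (50.2%), with medians of 0.24 and 0.24. The 2 lower ones were Ppargc1b (−0.57) and Gabpb1 (−0.19) in vehicle mice, and Tfb1m (−0.55) and Gabpa (−0.006) in fibril mice. Ppargc1a, the coactivator PGC-1alpha, had 10.97 CPM in VS and 19.9 in VI, against 17.5 in FS and 25.6 in FI. Both trained libraries lay above their sedentary partners, and both fibril libraries above their vehicle partners. From qPCR of individual livers and a western blot, the paper reported that PGC-1alpha rose with IT and did not rise with amyloid. Esrra, the receptor ERRalpha, had 52.0, 65.6, 40.6 and 58.7 CPM, and Nrf1 had 10.8, 13.5, 9.55 and 12.8 CPM in the same order. Tfam, which packages mitochondrial DNA, had 55.7, 60.3, 47.3 and 47.9 CPM, with the fibril libraries as the lower pair. In the additive model, 0 of the 12 passed for IT after adjustment and 4 were higher at an unadjusted p below 0.05 in edgeR (all genes, 7.23%).

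Among the mobile carriers and partners of the chain, cytochrome c (Cycs) had 77.2 CPM in VS and 85.1 in VI, against 79.3 in FS and 84.3 in FI, and these levels did not follow those of the subunits. The phosphate carrier Slc25a3, which feeds ATP synthase, had 324, 328, 270 and 314 CPM. The ADP/ATP carriers Slc25a5 and Slc25a4 had 331, 372, 283 and 325 CPM and 10.1, 5.62, 4.57 and 3.27 CPM, and the second of them is the form of heart and skeletal muscle. Of 13 such genes tested, Slc25a4 alone passed the adjusted threshold in edgeR's additive model, with a log2 change of −0.99 ± 0.20 (SE) with amyloidosis (adjusted p = 0.0325 in edgeR), and its order of libraries was that of the summed muscle markers.

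Tissue isoforms of complex IV stood apart from the rest. Cox6a2, Cox7a1 and Cox8b are the forms of heart and skeletal muscle, Cox8b and Cox7a1 also being known from brown fat. Cox6a2 had 31 reads in VS and 7 in VI, against 2 in FS and 2 in FI. Cox8b had 31 reads in VS, 11 in VI and 0 in both fibril libraries, at least 12.9-fold higher in VS than in FS and at least 3.64-fold higher in VI than in FI when 3 counts are taken as the floor of each library at 0. Cox7a1 had 46, 36, 29 and 16 reads in the same order. The order of the libraries was thus VS, VI and then the fibril libraries for each of the 3 genes. The other isoforms were rare in all libraries: Cox4i2, a form induced by low oxygen, had between 3 and 6 reads, Cox6b2, a testis form, between 7 and 13, and the testis forms Cox7b2 and Cox8c had 0.

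The summed level of the 13 skeletal muscle markers was likewise highest in VS and second in VI. Of these, 11 reached 1 CPM, 7 of them in VS alone and 4 in VS and VI alone, so no count of directions is given for them. Acta1, skeletal actin, had 455 reads in VS and 64 in VI, against 7 in FS and 0 in FI, and Mb, myoglobin, had 246, 25, 1 and 0. Myh4, a fast myosin heavy chain, did not keep to this order, with 158 reads in VS and 1 in VI, against 5 in FS and 0 in FI. Of the brown fat markers, Ucp1 and Dio2 had 0 reads in all libraries and Cidea at most 1. Elovl3, the remaining marker of that list, was highest in VS with 28 reads, followed by FS with 17, VI with 9 and FI with 6. Elovl3 reached 1 CPM in VS alone. VS was thus its highest library, as for the isoforms, but FS stood above VI. The part of muscle or brown fat RNA in the isoform result was not tested. Without the isoforms, the median of the members was −0.30 for FS versus VS and −0.23 for FI versus VI, with 75 and 77 of 78 lower.

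**Figure D4:**
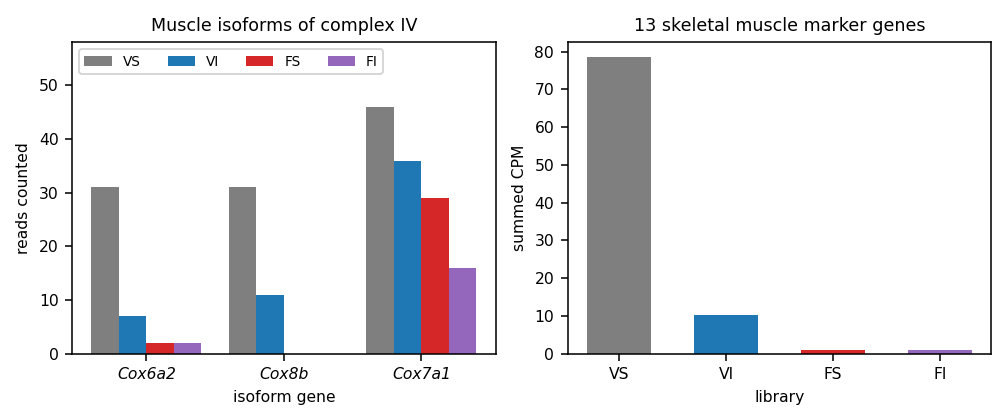
Left, reads counted (vertical axis) on the muscle isoform genes Cox6a2, Cox8b and Cox7a1 (horizontal axis) in VS, VI, FS and FI. Right, summed CPM (vertical axis) of 13 skeletal muscle marker genes in the same libraries, with VS highest in every group of bars.

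The promoters of Cox8a and Cox8b are shown side by side because they serve the liver and the muscle form of the same subunit. Each window has 120 bases before the start (GRCm38.p6), from chr19:7217617-7217736 for Cox8a and from chr7:140900447-140900566 for Cox8b, both on the minus strand. Capitals mark CAGCTG, the only searched motif in either.
Cox8a: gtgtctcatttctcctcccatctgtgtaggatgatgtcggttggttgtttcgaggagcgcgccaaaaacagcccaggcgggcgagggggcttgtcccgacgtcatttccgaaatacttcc
Cox8b: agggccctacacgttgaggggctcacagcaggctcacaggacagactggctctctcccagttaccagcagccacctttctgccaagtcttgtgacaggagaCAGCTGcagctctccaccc

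How reads that match several genes were assigned could bear on some counts and was not tested. Of the 85 members, 36 shared no stretch of 50 bases with another annotated gene, 19 shared over 10% of such stretches, and the highest share was that of Atp5o (41.6%). Of the genes named above, those over 10% were Atp5g2 (38.3%), Ndufa13 (28.5%), Uqcrb (25.5%), Atp5h (19.9%), Uqcrc2 (17.6%), Ndufb9 (15.6%), Cox7a2l (13.8%) and Atp5g1 (11.1%). Cox5a shared 9.11% and Ndufb8 2.67%, and 23 members overlap another gene, Ndufb8 and Ndufb2 among them on the same strand.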

How the data were processed

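Liver RNA of 4 pools of 4 mice (VS, VI, FS and FI) was sequenced on an Illumina platform. The authors deposited read counts per gene without normalization and FPKM values made from them: the deposited FPKM had a ratio of 1 to FPKM recomputed from count, gene length and total count for 69722 values above 0. The submitters' processing notes name fastp 0.23.2, STAR 2.5, HTSeq 0.6.1 and mm10. Whether counting used strand is not stated there.

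Counts were scaled by TMM over all genes (edgeR 4.0.16, R 4.3.3). Ratios were taken on the log2 scale after adding 0.5 counts. Their 95% intervals were exact conditional binomial ones and cover counting error only, and genes were counted beyond 1.5-fold. Each library enters 2 of the 4 contrasts, so contrasts that share one are not independent. An additive edgeR quasi-likelihood model (robust, 3 coefficients, 1 residual degree of freedom) was fitted to the genes that reached 1 CPM in 2 or more libraries. Alternatives used DESeq2 1.42.0, limma 3.58.1, total counts, FPKM with pseudocounts of 1 and 0.1, other filters and fold thresholds of 1.25 and 2. Figures were drawn with matplotlib 3.10.9. All 85 member identifiers are in GENCODE M21, 51 of them with identical start and end, and gene coordinates are those of the deposited table.

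Members and gene lists were chosen with earlier results of these data known. Named genes were the core and catalytic subunits, all tissue isoforms, and in each contrast the 3 highest and 3 lowest members with at least 5 CPM, with others given as examples, chosen after their values were seen. Besides the lists in the report, the following markers were summed. White fat markers had between 4.91 and 7.65 CPM, lymphocyte markers between 2.46 and 4.20, neutrophil markers between 1.99 and 4.34, stellate cell markers between 165 and 198, endothelial markers between 150 and 177 and erythroid markers between 253 and 360.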

Additional observations from a re-analysis of the deposited data

Results flagged for a closer look

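For 13 of the 81 members tested, the log2 ratio of IT pointed in opposite directions in vehicle and in fibril mice, with the counting interval on one side of 0 in each (all genes, 6.61%). In 12 of them the level was lower with IT in vehicle mice and higher with IT in fibril mice (all genes, 3.57%). Cox7c, a subunit of complex IV, went the other way, with 0.14 for VI versus VS and −0.0574 for FI versus FS. In complex I, the values for VI versus VS and FI versus FS were −0.17 and 0.15 for Ndufa3, −0.16 and 0.0868 for Ndufa2, −0.14 and 0.10 for Ndufb11, −0.13 and 0.13 for Ndufa13, and −0.12 and 0.11 for Ndufs7. In complex III they were −0.0768 and 0.0835 for Uqcrq and −0.0712 and 0.0685 for Uqcrc1, and in complex IV −0.10 and 0.10 for Cox5b and −0.0634 and 0.12 for Cox8a. In ATP synthase they were −0.16 and 0.13 for Atp5sl, −0.0730 and 0.0941 for Atp5j2, and −0.0465 and 0.12 for Atp5d. Cox7c shared 22.1% of its stretches of 50 bases with other genes, Ndufb11 17.5% and Cox5b 11.9%. Under total counts and FPKM, 12 of the 13 still pointed in opposite directions, and Uqcrc1 in fibril mice was just below 0 but above the median of all genes. With 1 library per group the difference between vehicle and fibril mice was not tested. Counting intervals narrow as reads increase, and the share over genes as abundant as the members was not taken.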

How the results depend on the processing

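The lower levels with fibrils kept their direction under every scaling, filter and set of members tried. In FI versus FS, total counts and FPKM lowered the ratios of all genes: the median over all genes, 0.00166 under TMM, was −0.0693 under total counts (59.3% of genes below 0), −0.0499 with FPKM and a pseudocount of 1 and −0.0674 with 0.1 (59.4% each). The median over members, 0.05, stayed above these values and was −0.0176 under total counts, −0.0175 with FPKM and a pseudocount of 1 and −0.0176 with 0.1, with 43 members below 0 in each, and the median of ATP synthase took the same 3 values. Its median for complex I was −0.0266, −0.0264 and −0.0266 and for complex III 0.0125, 0.0125 and 0.0125 under these settings. Uqcrc1 in FI versus FS became −0.00248 under total counts and under FPKM with a pseudocount of 1, and −0.00249 with 0.1, each above the median of all genes. Total counts gave 2 members lower beyond 1.5-fold in FI versus FS, as did FPKM with a pseudocount of 0.1. FPKM with a pseudocount of 1 left 0 higher in FS versus VS.

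Without a filter, 1 member was higher beyond 1.5-fold in VI versus VS. At a mean of 20 CPM, 0 were lower in VI versus VS, FI versus FS and FS versus VS, 0 higher in FS versus VS and 1 lower in FI versus VI. Without tissue isoforms, 0 were lower in VI versus VS and FS versus VS and 1 in FI versus VI. At the lower of the 2 other fold thresholds, lower members were 4 in VI versus VS (all genes, 15.7%), 4 in FI versus FS (17.7%), 37 in FS versus VS (18.8%) and 14 in FI versus VI (15.5%), and higher ones 1 in FI versus FS (15.6%) and 2 in FS versus VS (21.1%). The mean in place of the median, which gives the muscle isoforms weight, was −0.0718 in VI versus VS, −0.41 in FS versus VS and −0.30 in FI versus VI, −1.04 for complex IV in FS versus VS and 0.00737 for complex I in FI versus FS.

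In the additive model, members lower with amyloidosis were 14 without a filter (all genes, 3.65%), 0 without the IT term (0.017%), 0 with DESeq2 (1.93%) and 2 with limma-voom (2.69%). At an unadjusted p below 0.05 they were 44, 25, 22 and 41 (all genes, 7.82%, 6.66%, 6.01% and 10.9%). The cause was not tested for any of these changes. No paired analysis was possible because each group has 1 library. The values of the isoforms, Ndufa4l2 and Ndufb2 were limited by their read counts, the lowest of the members.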
